A study of Mus musculus with 8 samples.

Results

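The genes described are 32 genes of cholesterol and fatty acid synthesis, chosen by symbol from the 52661 genes of the deposited tables, and all 32 were found and passed the filter on low counts that left 18631 genes for testing. RNA sequencing was done on mouse (C57BL/6) intraepithelial lymphocytes, immune cells that live within the epithelium of the intestine. There were 4 libraries of cells kept with recombinant osteopontin at 2 µg/ml and 4 libraries of cells kept without it, called null. Both groups had been sorted on the leukocyte protein CD45 and cultured for 24 h at 37 °C in RPMI medium with 10% serum. Libraries of both groups are named 1, 2, A and B, and values per library are given here in that order. Whether each library had its own animal, pool or culture is not stated in the labels, so p-values measure only the library-to-library spread, part or all of which may be technical.

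Cells make cholesterol from acetyl-CoA through mevalonate, squalene and lanosterol, and make fatty acids from the same precursor by carboxylation, chain building, elongation and desaturation. Transcription of both branches is driven by the SREBP proteins, which sit in the endoplasmic reticulum with their escort SCAP while sterols are plentiful and are cleaved and sent to the nucleus when sterols run low. Liver X receptors induce the exporters ABCA1 and ABCG1 when oxysterols build up. In T cells the synthesis genes are known to be induced upon activation, when growing cells need new membrane.

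No lipid synthesis gene passed the test for a difference between osteopontin and null libraries. By the quasi-likelihood test of edgeR, 0 of the 32 genes were higher and 0 were lower at a Benjamini-Hochberg adjusted p under 0.05, beside 0% of all tested genes in each direction, and every one of the 32 had an adjusted p of 1.00 when rounded. An unadjusted p under 0.05 was found for 1 of the 32, Tm7sf2, which was fitted higher, where 1.85% of all tested genes were fitted higher and 2.08% lower at that p. DESeq2 called 0 members, and at the same adjusted p it called 0.0684% higher and 0.192% lower of the 29223 genes it tested. Its unadjusted p was under 0.05 for 2 members (Tm7sf2 and Idi1). The share of all genes at that unadjusted p was not computed for DESeq2, so the 2 cannot be read as an excess. Groups did not overlap for 1 of the 32, Idi1, which was lower, where 1.58% of all tested genes were lower and 1.89% higher without overlap. Large changes lay outside most intervals: the 95% interval of the fold change lay within 1.5-fold for 26 of the 32 genes (81.2%) and within 2-fold for 31 (96.9%), against 76.1% and 93.7% of the 10616 genes averaging 5 CPM or more (CPM, counts scaled to a common library total by the TMM method). The median log2 fold change, always osteopontin over null, was -0.03 for the 32 genes and 0.00 for all tested genes. It was -0.095 for the 32 genes with the deposited effective lengths as an offset, and -0.085 to -0.007 when 1 library was left out (lowest without osteopontin library 1, highest without osteopontin library 2). Fitted levels were lower for 22 of the 32 genes (68.8%), beside 49.9% of all tested genes, and for 18 when only protein-coding transcripts were counted.

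**Figure D1:**
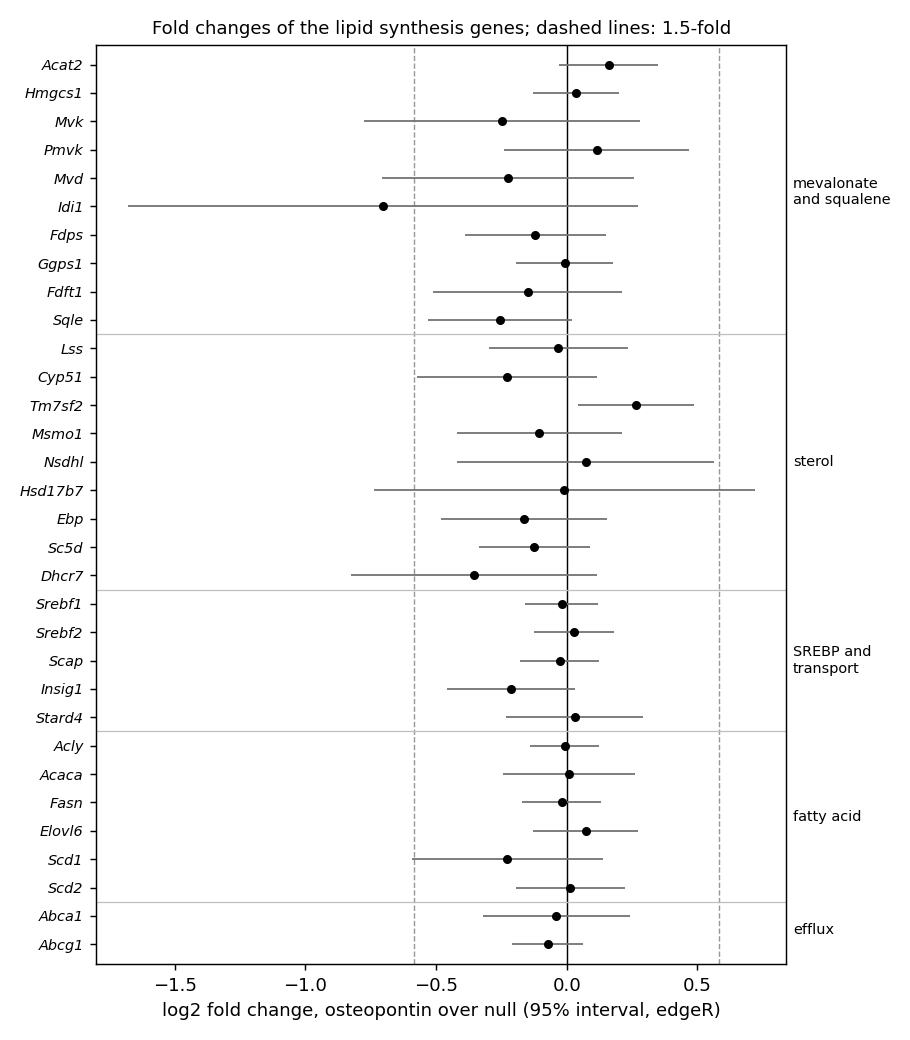
Fold changes of the 32 genes on the log2 scale, osteopontin over null, with 95% intervals from edgeR, grouped by step of the pathway. Dashed lines mark a 1.5-fold change. The interval of Tm7sf2 (0.04 to 0.49) is the 1 of 32 that leaves out 0, and that of Idi1 (-1.68 to 0.27) is the widest.

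Library totals ranged from 49108969 to 71399847 estimated reads, and the 32 genes took 0.223% to 0.252% of the reads with osteopontin and 0.234% to 0.241% without. The thinnest value among them rested on 210 reads and the deepest on 33447. A count of 3 reads, the limit that counting alone sets, corresponded to 0.0420 to 0.0611 CPM. Markers of T and intraepithelial lymphocytes (9 genes) summed to between 5940 and 6360 CPM with osteopontin and between 5690 and 6120 CPM without. Markers of other cells were present as well: fibroblast genes summed to 289 CPM in null library 1, to 151 CPM in null library A and to between 6.30 and 24.3 CPM in each of the other 6, and enterocyte genes at 40.4 to 85.0 CPM with osteopontin and 42.1 to 71.2 CPM without. Adipocyte markers, of which Cidec was at 0 in every library, summed to at most 4.98 CPM, and enteric glia markers to at most 10.0 CPM. Endothelial genes summed to 58.0 to 112 CPM with osteopontin and 76.5 to 120 CPM without, and macrophage and dendritic cell genes to 76.4 to 162 CPM with osteopontin and 84.1 to 157 CPM without. The largest sums among these other cells were those of 6 B and plasma cell genes. They were 660 to 1500 CPM with osteopontin and 1060 to 1670 CPM without, with 6 genes fitted lower and 0 higher. All 6 fibroblast genes and all 4 endothelial genes tested were fitted lower as well. Of the tested enterocyte genes 2 were fitted lower and 6 higher, and of the macrophage and dendritic cell genes 3 lower and 3 higher. The adipocyte and enteric glia lists had 1 tested gene each, fitted higher. None of these marker genes was called, and their part in the values below was not tested. In bulk RNA, fewer cells of a type and less RNA per cell cannot be told apart.

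Per unit of length, the message of the regulator Srebf2 was the most abundant of the 32. On the deposited TPM scale, in which transcript abundance is corrected for length and library size, and counting protein-coding transcripts only, Srebf2 stood at 123 ± 14.7 TPM with osteopontin and 119 ± 12.1 TPM without, followed by the citrate lyase Acly at 98.7 ± 3.36 and 97.9 ± 3.98 TPM (SD, n = 4 each). By the mean over both groups, Acat2, Abcg1, Srebf1 and Tm7sf2 came next. Their means were 63.9, 53.8, 50.9 and 50.6 TPM with osteopontin and 56.1, 55.6, 51.7 and 38.7 TPM without. In the null group Fdps (43.1 TPM), Hmgcs1 (41.3 TPM) and Scap (40.0 TPM) stood above Tm7sf2. The ranges of Abcg1 and Srebf1 overlapped in both groups. At the bottom of the order stood Lss (6.66 ± 2.10 and 7.62 ± 1.29 TPM), the exporter Abca1 (6.61 ± 1.06 and 6.70 ± 0.928 TPM) and Hsd17b7 (3.17 ± 0.916 and 2.97 ± 1.57 TPM). The ranges of Lss and Abca1 overlapped as well. Srebf2 thus exceeded Srebf1 on this scale in all 8 libraries. Over all transcripts the order turned in both B libraries, with Srebf1 at 211.5 and Srebf2 at 125.4 TPM in osteopontin library B, and Srebf1 at 166.9 and Srebf2 at 132.3 TPM in null library B.

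**Figure D2:**
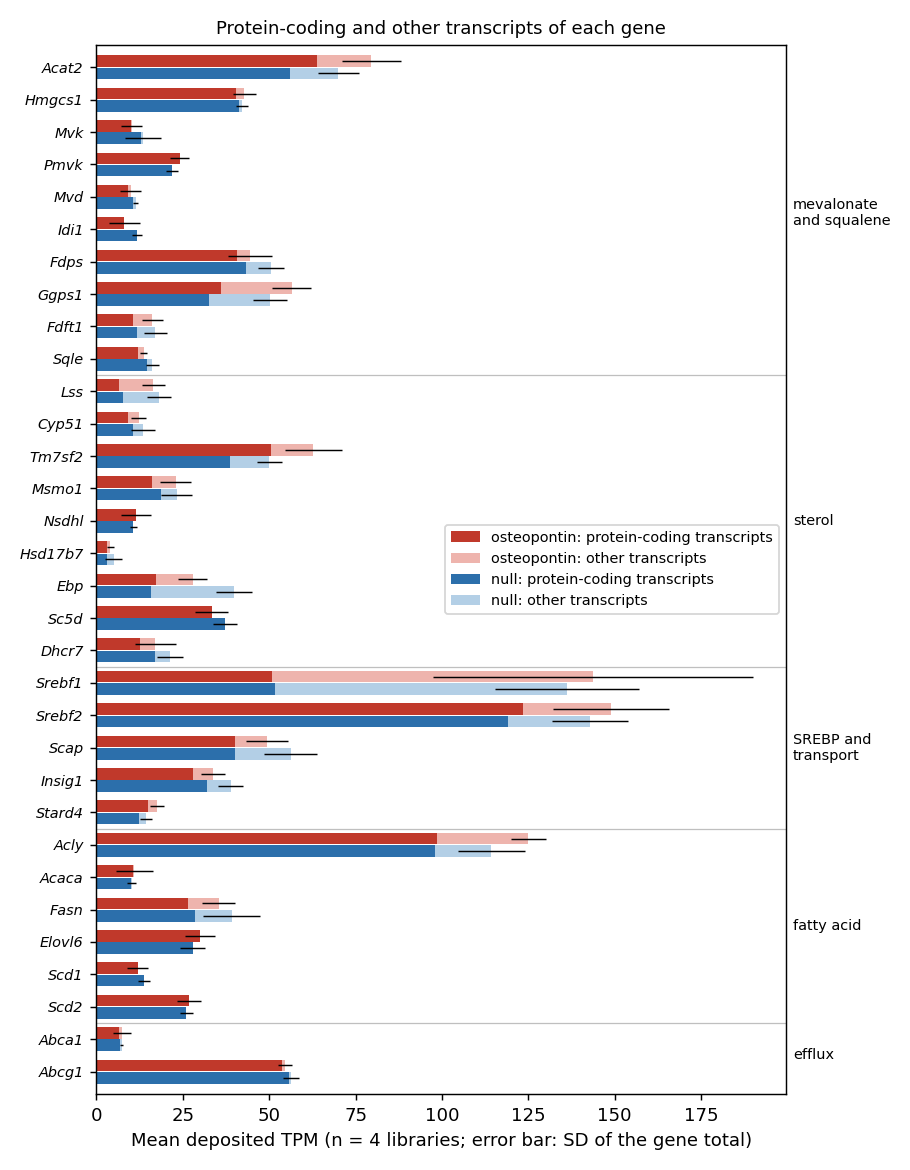
Mean deposited TPM of each gene (n = 4 libraries a group), split into protein-coding transcripts (dark) and transcripts of other classes (pale), with the SD of the gene total. The pale part makes up 63.4% of the total for Srebf1, 58.6% for Lss and 51.2% for Ebp, over all libraries.

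Promoter sequences were available from RefSeq (build GRCm38.p6) for 25 of the 32 genes, in 31 windows reaching from 250 bases before to 50 bases after each annotated start. Letters searched on both strands were TCACNCCAC, a form of the sterol regulatory element bound by the SREBP proteins, CCAAT, the box bound by NF-Y, and CACGTG, the E-box. These motifs do not share bases with each other in the sequences shown. CCAAT was found in 67.7% of the members' windows and in 37.4% of all 32851 windows, CACGTG in 22.6% and 7.15%, and TCACNCCAC in 3.23% and 1.24%. The single member with TCACNCCAC was Hmgcs1. The bases before the start of Hmgcs1 (chr13:119690101-119690350, plus strand), Insig1 (chr5:28071162-28071362, plus strand) and Sc5d (chr9:42264301-42264550, minus strand) are printed because Hmgcs1 holds the sterol element and because Insig1 and Sc5d are 2 of the 4 genes that hold both other motifs, with Dhcr7 and Hsd17b7. Capitals mark the motifs, and ATTGG is CCAAT on the other strand.
Hmgcs1: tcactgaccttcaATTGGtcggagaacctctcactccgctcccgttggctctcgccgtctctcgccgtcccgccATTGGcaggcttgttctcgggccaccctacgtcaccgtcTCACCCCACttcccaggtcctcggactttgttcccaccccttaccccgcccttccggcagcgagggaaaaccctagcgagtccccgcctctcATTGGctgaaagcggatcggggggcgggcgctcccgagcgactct
Insig1: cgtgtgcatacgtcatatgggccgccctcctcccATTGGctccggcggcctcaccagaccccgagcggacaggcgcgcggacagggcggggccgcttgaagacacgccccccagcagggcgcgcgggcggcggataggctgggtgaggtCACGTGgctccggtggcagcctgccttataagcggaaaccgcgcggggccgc
Sc5d: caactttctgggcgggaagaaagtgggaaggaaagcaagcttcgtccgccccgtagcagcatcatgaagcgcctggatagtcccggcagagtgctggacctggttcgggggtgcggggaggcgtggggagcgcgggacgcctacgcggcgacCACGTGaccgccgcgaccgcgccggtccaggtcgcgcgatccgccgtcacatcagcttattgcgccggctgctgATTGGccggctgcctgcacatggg
These 3 genes, which share CCAAT, had log2 fold changes of 0.04 for Hmgcs1, -0.21 for Insig1 and -0.12 for Sc5d. All 3 of the 95% intervals included 0, and Hmgcs1 was at -0.017 with the effective length offset. Whether shared letters go with shared changes was not tested. None of them passed the test.

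The mevalonate and squalene steps were fitted lower in 7 of 10 genes and higher in 3, with 0 called and a median log2 fold change of -0.13. Acat2, the cytosolic thiolase that joins acetyl-CoA units, had 86.3, 98.7, 105.9 and 98.6 CPM in the osteopontin libraries and 76.8, 86.7, 98.4 and 86.5 CPM in the null libraries (log2 fold change 0.16, SE 0.09). Hmgcs1 (chromosome 13, 119690379 to 119708260, as all spans here are whole genes of the GENCODE M21 annotation on GRCm38), which condenses the next acetyl-CoA into HMG-CoA, had 90.6, 84.4, 84.1 and 94.6 CPM with osteopontin and 88.7, 88.3, 88.0 and 79.8 CPM without. The groups of both genes overlapped, and the 95% interval of Hmgcs1 ran from -0.13 to 0.20. Mvk, the kinase that phosphorylates mevalonate, had 9.51, 9.80, 8.78 and 5.02 CPM with osteopontin and 9.96, 9.43, 10.8 and 9.20 CPM without, so that osteopontin library B alone stood well below the rest. The log2 fold change of Mvk was -0.25, and -0.07 without that library.

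Idi1 (chromosome 13, 8885501 to 8892451), the isomerase that prepares isopentenyl diphosphate for chain growth, had the largest fitted change of the 32 genes. It stood at 20.8, 13.4, 19.1 and 4.27 CPM with osteopontin and at 22.7, 21.9, 21.5 and 27.7 CPM without. All 4 osteopontin libraries lay below all 4 null libraries, but osteopontin library 1 and null library A were close to each other and osteopontin library B was far below the other 7. The log2 fold change was -0.70 (SE 0.42, edgeR adjusted p = 1.00), and without osteopontin library B it was -0.40.

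Farnesyl diphosphate synthase (Fdps) had 38.3, 31.4, 29.2 and 33.2 CPM with osteopontin and 36.7, 36.3, 40.2 and 30.3 CPM without, and its span shares 7512 bases with the protein-coding gene Gm43738 on the same strand, so reads may be split between them. Ggps1, which branches off toward protein prenylation, had 61.5, 54.8, 52.5 and 55.9 CPM with osteopontin and 54.9, 56.6, 56.3 and 58.0 CPM without, among the tightest values of the module. Sqle (chromosome 15, 59315077 to 59331192), the squalene epoxidase that is a known control point of the pathway, had 28.7, 26.6, 24.7 and 24.7 CPM with osteopontin and 28.3, 29.8, 29.4 and 37.4 CPM without. Osteopontin library 1 lay just above null library 1, and the other osteopontin libraries lay below every null library. The log2 fold change of Sqle was -0.26 (SE 0.13, edgeR adjusted p = 1.00), and it was -0.16 without null library B, the highest library. The other 3 genes of these steps, Pmvk, Mvd and Fdft1 (squalene synthase), had log2 fold changes of 0.11, -0.23 and -0.15, and their groups overlapped.

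**Figure D3:**
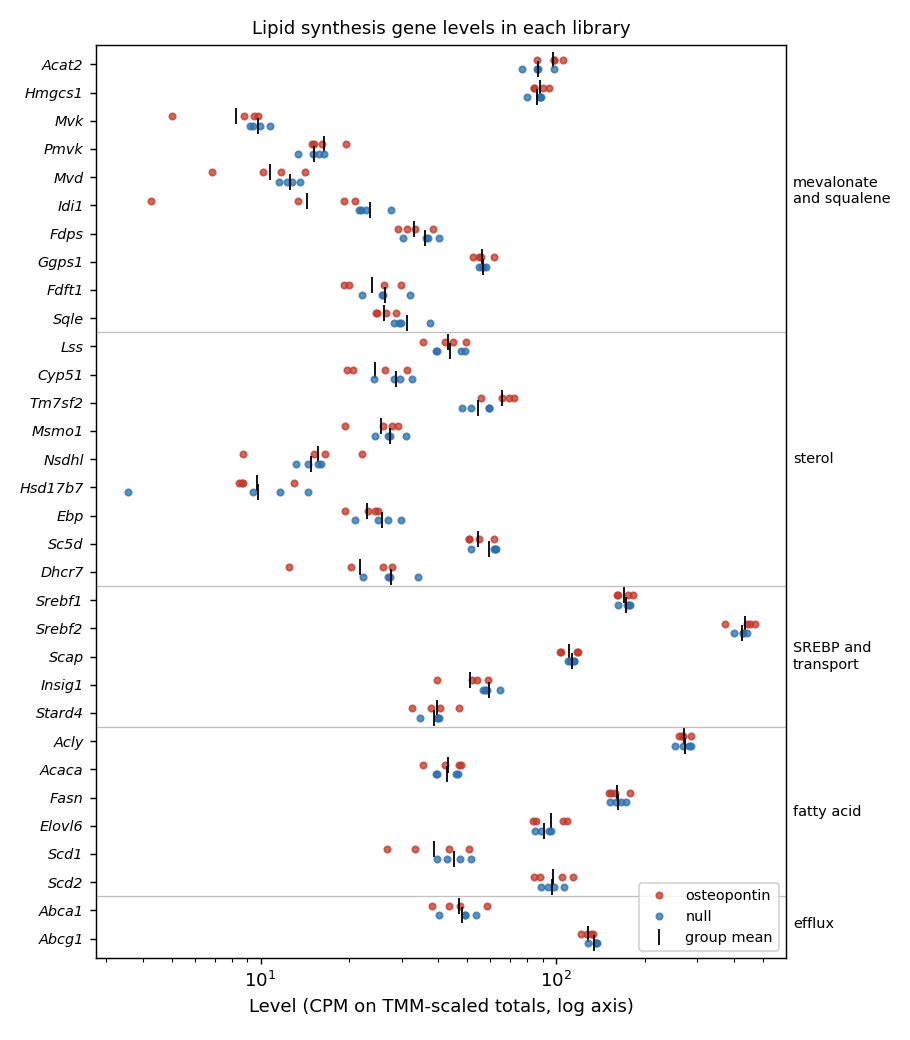
Level of each of the 32 genes in each library, in CPM on a log axis, osteopontin (red, above) and null (blue, below), with the group mean as a bar. The groups overlap for every gene except Idi1, whose osteopontin libraries stand at 4.27 to 20.8 CPM and null libraries at 21.5 to 27.7 CPM.

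Of the 9 genes that turn squalene epoxide into cholesterol, 7 were fitted lower and 2 higher, with 0 called and a median of -0.10. Tm7sf2 (chromosome 19, 6062821 to 6068373), a sterol reductase whose work is shared with the lamin B receptor, was fitted higher. Its level was 55.8, 65.6, 69.1 and 71.9 CPM with osteopontin and 51.6, 59.4, 59.3 and 48.1 CPM without. Osteopontin library 1 lay below null libraries 2 and A, and the other osteopontin libraries lay above all null libraries. The log2 fold change was 0.27 (95% interval 0.04 to 0.49, edgeR adjusted p = 1.00), and leaving out 1 library at a time gave 0.207 to 0.333. The span of Tm7sf2 overlaps that of Vps51 on the same strand by 532 bases, so reads of the shared stretch may be split between them.

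Cyp51, the lanosterol demethylase, had 31.3, 20.6, 26.4 and 19.6 CPM with osteopontin and 29.6, 32.7, 28.3 and 24.2 CPM without. Sc5d, which introduces a late double bond, had 54.9, 50.9, 61.8 and 50.7 CPM with osteopontin and 62.4, 62.2, 51.7 and 61.5 CPM without. Dhcr7, the reductase of the last step, had 27.9, 20.2, 12.5 and 26.1 CPM with osteopontin and 22.1, 27.0, 27.5 and 34.2 CPM without, a log2 fold change of -0.35 with a wide interval (-0.83 to 0.12). It was -0.17 without osteopontin library A and -0.50 without osteopontin library 1, and that of Cyp51 (-0.23) was -0.14 without osteopontin library B and -0.37 without osteopontin library 1. The groups of Cyp51, Sc5d and Dhcr7 overlapped, and for Dhcr7 osteopontin library A was the lowest of the 8. Among the genes that strip methyl groups, Msmo1 and Nsdhl had log2 fold changes of -0.10 and 0.07. That of Hsd17b7 was -0.01, with an interval from -0.74 to 0.72 and a sign that changed with the processing. Hsd17b7 ranged from 8.47 to 13.0 CPM with osteopontin and from 3.56 to 14.5 CPM without. Lss, which closes the ring to lanosterol, had a log2 fold change of -0.03.

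For the sterol isomerase Ebp (chromosome X, 8185329 to 8193512) the sign and the size depended on how transcripts were counted. Over all transcripts it stood at 24.5, 23.1, 24.9 and 19.3 CPM with osteopontin and at 27.0, 29.8, 24.9 and 20.9 CPM without (log2 fold change -0.16, SE 0.15). Over protein-coding transcripts the log2 fold change was 0.24. With the effective length offset it was -0.56 (SE 0.18, edgeR adjusted p = 1.00). Ebp transcripts of other classes, all annotated as retaining an intron, stood at 11.7, 7.54, 13.1 and 9.53 TPM in the osteopontin libraries and at 13.5, 24.6, 27.6 and 31.0 TPM in the null libraries. Those values did not overlap, although osteopontin library A and null library 1 were nearly equal, and they were singled out after being seen and were not tested. Protein-coding Ebp transcripts overlapped widely, at 19.98, 17.8, 18.0 and 13.4 TPM with osteopontin and 20.5, 22.3, 12.2 and 7.79 TPM without. Salmon divides the reads of overlapping transcripts by estimate, so this split is less certain than the gene total.

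The 2 SREBP genes and Scap had small fitted changes with narrow intervals. Srebf2 (chromosome 15, 82147181 to 82205379), which encodes the SREBP protein that mainly serves cholesterol synthesis, had 469.7, 443.2, 451.5 and 373.2 CPM with osteopontin and 429.8, 444.3, 427.6 and 401.3 CPM without (95% interval of the log2 fold change -0.12 to 0.18). Srebf1 (chromosome 11, 60199089 to 60222581), whose products mainly serve fatty acid synthesis, had 181.6, 162.6, 160.9 and 175.6 CPM with osteopontin and 176.0, 173.4, 161.7 and 178.0 CPM without (-0.16 to 0.12). The escort Scap had 118.3, 104.1, 117.9 and 102.9 CPM with osteopontin and 115.3, 115.2, 111.5 and 109.6 CPM without. Each of these 3 genes had groups that overlapped almost wholly. Srebf1 transcripts not annotated as protein-coding had a wide spread: their summed level was 58.3, 87.1, 59.4 and 167 TPM with osteopontin and 75.2, 70.0, 75.4 and 117 TPM without, and was highest in the B library of each group.

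Insig1 (chromosome 5, 28071363 to 28078662), which holds SCAP and the SREBP proteins back and is itself a target of them, had 58.8, 53.9, 52.1 and 39.5 CPM with osteopontin and 57.6, 64.7, 56.4 and 58.3 CPM without. Osteopontin library 1 exceeded 3 of the 4 null libraries and the other osteopontin libraries lay below all of them. The log2 fold change was -0.21 (SE 0.11, edgeR adjusted p = 1.00), and -0.11 without osteopontin library B. Stard4, a sterol transfer protein, ranged from 32.7 to 46.9 CPM with osteopontin and from 34.7 to 40.3 CPM without, a log2 fold change of 0.03.

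Fatty acid synthesis was evenly divided, with 3 of 6 genes fitted higher, 3 lower, 0 called and a median of 0.00. Acly, which cuts citrate into the acetyl-CoA used by both branches, had 286.4, 269.8, 259.9 and 267.0 CPM with osteopontin and 268.5, 281.3, 253.4 and 285.9 CPM without (95% interval -0.14 to 0.12). The fatty acid synthase Fasn (chromosome 11, 120805846 to 120824547) had 178.6, 153.2, 150.8 and 158.4 CPM with osteopontin and 172.1, 152.6, 159.2 and 165.5 CPM without (-0.17 to 0.13). For both genes the interval left out a 1.5-fold change in either direction. The carboxylase Acaca and the elongase Elovl6 had log2 fold changes of 0.01 and 0.07.

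The desaturases Scd1 and Scd2, close relatives that place the double bond of oleate and palmitoleate, had unlike fitted changes. Scd1 had 50.8, 43.5, 33.3 and 26.9 CPM with osteopontin and 51.5, 39.7, 42.6 and 47.1 CPM without (log2 fold change -0.23, SE 0.17, and -0.09 without osteopontin library B or -0.39 without osteopontin library 1). Scd2 had 113.9, 105.1, 88.3 and 84.4 CPM with osteopontin and 98.6, 106.7, 88.9 and 93.8 CPM without (0.01, SE 0.10). In both genes osteopontin libraries 1 and 2 were above osteopontin libraries A and B, and the groups overlapped. Null libraries 1 and 2 were likewise above null libraries A and B for Scd2, but not for Scd1. Reads shared by close relatives may be divided between them, and the difference between the 2 fold changes was not tested.

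Both exporters were fitted slightly lower with osteopontin, and neither passed the test. Abca1, which loads cholesterol onto lipid-poor apolipoproteins, had 58.5, 43.4, 47.2 and 37.9 CPM with osteopontin and 53.6, 40.3, 49.2 and 49.2 CPM without (95% interval -0.32 to 0.24). Abcg1, which passes sterol to lipoprotein particles, had 133.3, 127.7, 131.2 and 121.0 CPM with osteopontin and 137.0, 136.7, 128.4 and 137.6 CPM without (-0.21 to 0.06). The 19 cholesterol synthesis genes together summed to 658.0 ± 24.0 CPM with osteopontin and 676.5 ± 20.4 CPM without, and the 2 exporters to 175 ± 13.8 and 183 ± 6.77 CPM (SD, n = 4 each). Both sums differed by less than 1 SD of the osteopontin libraries.

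Libraries differed more within the osteopontin group than within the null group for most of these genes. The coefficient of variation was larger among the osteopontin libraries for 27 of the 32 genes (84.4%), against 53.9% of the 10616 genes averaging 5 CPM or more. Its median was 13.2% with osteopontin and 8.68% without for the 32 genes, and 11.3% and 10.6% for the 10616 genes. Osteopontin library B held the lowest value of 15 of the 32 genes (46.9%, against 23.0% of the 10616 genes), and osteopontin library 1 held the highest of 10 (31.2%, against 7.49%). Leaving out osteopontin library B, the coefficient was larger in the osteopontin group for 22 of the 32 genes, against 39.5% of the 10616. Osteopontin library B was the shallowest of the 8, with 49108969 reads, had the lowest B and plasma cell marker sum (660 CPM, against 1060 to 1670 in the other 7) and the largest share of the 32 genes' TPM on transcripts that are not protein-coding (28.3%, against 18.7% to 25.4%). Null library B, which had 65554396 reads, came next to it in that marker sum (1060 CPM) and in that share (25.4%). Enterocyte marker sums were highest in the B libraries too, at 85.0 CPM with osteopontin and 71.2 CPM without. The part of these traits in the spread was not tested.

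**Figure D4:**
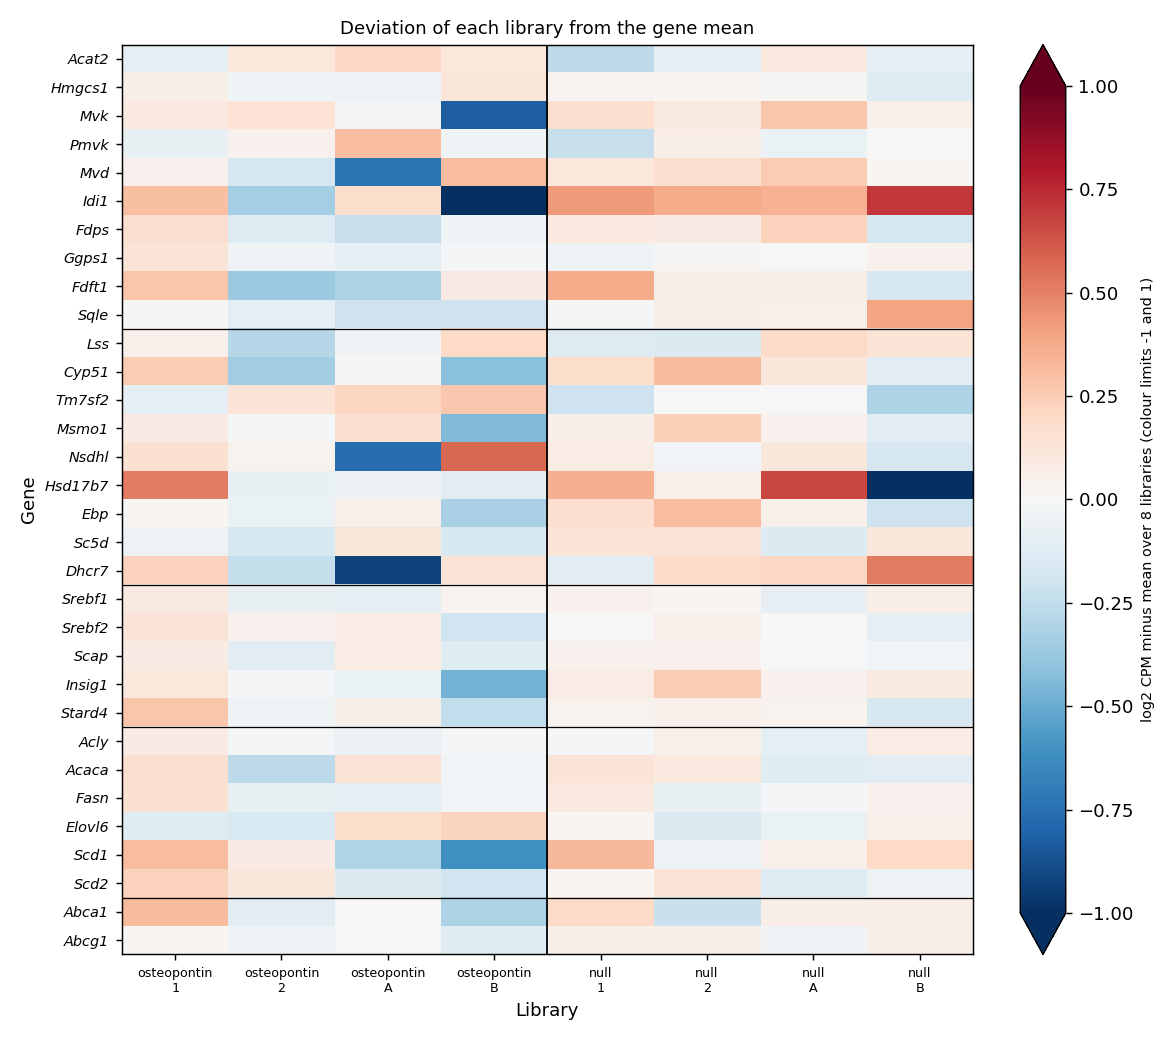
Deviation of each library from the gene's mean over all 8 libraries, on the log2 CPM scale, with osteopontin libraries on the left (blue below the mean, red above, colours limited at -1 and 1). Low values of osteopontin library B (Idi1, Mvk, Scd1, Insig1) and osteopontin library A (Dhcr7, Nsdhl, Mvd) stand in different genes, and no block of colour separates the groups.

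Neighbouring pathways gave 0 called genes among 66 tested of 73 listed, with 4 at an unadjusted edgeR p under 0.05. At that p, 1.85% of all tested genes were fitted higher and 2.08% lower. Of the list on sterol storage and trafficking, 12 genes were tested, 5 fitted higher and 7 lower. Its nearest gene was Soat2, an enzyme that esterifies cholesterol, at 83.2 ± 6.82 CPM with osteopontin and 68.0 ± 8.56 CPM without (log2 fold change 0.29). Among 11 genes of triglyceride and phospholipid synthesis, 4 were fitted higher and 7 lower, and the choline kinase Chka was nearest, at 38.8, 36.9, 32.1 and 35.8 CPM with osteopontin and 28.6, 29.7, 24.4 and 27.2 CPM without. All 4 osteopontin libraries of Chka lay above all null libraries (log2 fold change 0.39, SE 0.12, edgeR adjusted p = 1.00). Of all tested genes, 1.89% were higher and 1.58% lower without overlap. Fatty acid oxidation, the opposing pathway, had 5 genes fitted higher and 5 lower of 10 tested, with the long-chain dehydrogenase Acadl nearest (-0.24). The medians were -0.07 for 8 liver X receptor genes and targets (nearest Abca2, 0.13), -0.08 for 17 other fatty acid synthesis and desaturation genes (nearest Elovl1, -0.20) and -0.08 for 8 genes of SREBP processing and sterol uptake.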

How the data were processed

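Transcripts were quantified with Salmon, per the submitters' processing notes. For its version, transcript set and genome build, the sources used here give nothing. Per the file headers, the authors deposited for each library the estimated counts, the TPM and the effective length (in bases) of 133618 transcripts. Estimated counts were summed per gene, rounded and compared with edgeR 4.0.16 (quasi-likelihood F test, robust, two-sided, group as the only term, filterByExpr with a minimum count of 10, TMM scaling), adjusted by Benjamini-Hochberg over all 18631 tested genes. CPM used TMM-scaled totals. The deposited TPM was summed per gene for levels only, and the effective length entered 1 alternative as an offset. SEs are the fold change over the square root of F, and intervals are at 95%. The test was checked on simulated data that had the same spread setting for every gene and library. Such a check cannot tell how the test performs on these libraries. DESeq2 1.42.0 was an alternative, as were the replicate name as a block, RLE scaling, no filter, protein-coding transcripts only and leaving out libraries. Gene spans come from GENCODE M21 (GRCm38), where 27 of the 32 identifiers have the same version. Of the 32 genes, 17 overlap another annotated gene, 6 of them a protein-coding gene on the other strand, and the labels say that libraries were stranded but not whether quantification used strand. The genes, lists and alternatives were chosen with earlier results of these data known. Values per library were given for the 12 genes of smallest p, the 12 of highest TPM and 7 regulators, desaturases and exporters, ranges or fold changes for the others, and in each neighbouring list the gene of smallest p was to be named. That gene of 1 list is not reported here. Libraries of 1 group differed by far more than sampling noise. Intervals and floors cover counting error or library spread only.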

Additional observations from a re-analysis of the deposited data

Results flagged for a closer look

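Single libraries stood apart from the other 3 of their group in 6 of 64 groups of 4, for 6 of the 32 genes. The rule was Dixon's, the gap to the nearest value over the range, which by chance flags about 1 in 20 groups. The share of all tested genes flagged by this rule is not given here. The count therefore cannot be read as an excess particular to these genes. Hsd17b7 stood at 13.0 CPM in osteopontin library 1 and at 8.47 to 8.74 CPM in the other osteopontin libraries. Null library B held 37.4 CPM of Sqle (28.3 to 29.8 in the others), 79.8 CPM of Hmgcs1 (88.0 to 88.7) and 34.7 CPM of Stard4 (39.7 to 40.3). Null library A held 51.7 CPM of Sc5d (61.5 to 62.4) and 128.4 CPM of Abcg1 (136.7 to 137.6).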

How the results depend on the processing

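None of the 32 genes was called in any of the 15 alternatives (smallest adjusted p 0.482, edgeR or DESeq2), while over all genes 4 were called with no low-count filter, 76 with DESeq2 (20 higher, 56 lower) and 0 to 37 when 1 library was left out, the 37 without osteopontin library B (2 higher, 35 lower). Leaving out null libraries 1 and A together gave 0. The median log2 fold change of the 32 genes was -0.095 with the effective length offset, -0.025 over protein-coding transcripts and -0.085 to -0.007 without 1 library. Genes fitted lower numbered between 18 and 26 of 32 over all alternatives, and between 11 and 14 of the 19 cholesterol synthesis genes. The 26 were reached without osteopontin library 1, where 6 of the 32 had an unadjusted edgeR p under 0.05. Of these, Acat2 and Tm7sf2 were fitted higher, and Cyp51, Dhcr7, Insig1 and Scd1 lower. The share of all tested genes at that p was not computed for this alternative, so the 6 cannot be read as an excess. With the replicate block 0 genes were called, 21 of the 32 genes were fitted lower and Hsd17b7 had 0.130. Acat2 and Tm7sf2 had an unadjusted edgeR p under 0.05 with that block (adjusted p 0.907 each). For that block, too, the share of all tested genes at that p was not computed, so these genes cannot be read as an excess. Same-named libraries deviated together weakly (correlations 0.0945, 0.0990, 0.105 and 0.150 for 1, 2, A and B). Every library correlated best with its namesake, and the highest value between different names was 0.0215. The main fit was not blocked because the labels do not say what the names mark.

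For 16 genes the sign held in every alternative. With the effective length offset the log2 fold change turned to -0.017 for Hmgcs1, 0.140 for Ggps1, 0.035 for Srebf1 and 0.092 for Acly. With no change of sign, that offset also gave -0.442 for Mvk, -0.555 for Idi1, -0.221 for Fdps, -0.170 for Lss, -0.324 for Hsd17b7, -0.556 for Ebp, -0.223 for Scap, 0.243 for Stard4 and -0.181 for Fasn. Over protein-coding transcripts it turned to 0.069 for Hsd17b7, 0.236 for Ebp, 0.013 for Scap and 0.008 for Fasn. Without null libraries 1 and A it turned to 0.579 for Hsd17b7, 0.010 for Fasn, -0.035 for Scd2 and 0.064 for Abca1. Without 1 library at a time the sign changed for 14 genes, with these ranges: Ggps1 -0.056 to 0.021, Lss -0.109 to 0.049, Msmo1 -0.176 to 0.006, Nsdhl -0.142 to 0.267, Hsd17b7 -0.287 to 0.244, Srebf1 -0.052 to 0.006, Srebf2 -0.012 to 0.094, Scap -0.061 to 0.005, Stard4 -0.066 to 0.109, Acly -0.042 to 0.015, Acaca -0.045 to 0.088, Fasn -0.076 to 0.007, Scd2 -0.068 to 0.077, Abca1 -0.167 to 0.048. Among genes that kept their sign, the ranges were -0.341 to -0.073 for Mvk, -0.387 to -0.065 for Mvd, -0.281 to -0.048 for Fdft1, -0.371 to -0.138 for Cyp51, -0.503 to -0.168 for Dhcr7 and -0.389 to -0.089 for Scd1. The cause of these turns was not tested. Counting protein-coding transcripts alone moved the TPM level of 17 genes by more than the spread between libraries.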
